A study of Mus musculus with 107 samples.

Results

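Neural progenitor cells (NPC) that differentiated with ciliary neurotrophic factor (CNTF) were compared with NPC that differentiated spontaneously (SPONT) in the same medium without it. The members were the 8 libraries whose sample titles name these conditions, 4 CNTF and 4 SPONT, of 107 libraries in 23 groups. All 8 came from NPC made from a single female C57BL/6 mouse embryonic stem cell (ESC) line, in which SOX2-cre had switched on RiboTag, an HA tag on the ribosomal protein Rpl22, so that RNA bound to tagged ribosomes could be pulled down. In both groups EGF and FGF were lowered to 1 ng/ml for 4 days, and CNTF at 100 ng/ml was the only named addition in the CNTF group. The passage and derivation of the NPC that were differentiated are not stated in the sources used here, and all cells come from that 1 line. The paper's reporting summary says that its in vitro experiments had independent biological replicates. No label says how the 4 libraries of a group were grown. The p-values measure the spread between these libraries, which may be technical. The libraries are bulk: more cells of a type and more RNA per cell cannot be told apart.

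CNTF is a neuropoietic cytokine of the interleukin-6 family. It binds CNTF receptor alpha, which has no intracellular domain and joins the signalling chains LIF receptor and gp130; JAK kinases bound to these chains then phosphorylate STAT3, which enters the nucleus and activates genes that include its own inhibitor Socs3. In the nervous system this pathway is known for supporting astrocyte differentiation, for inducing Gfap and for driving astrocyte reactivity after injury.

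Total counts per library were 62174188–76772832 in SPONT and 55269375–74847119 in CNTF. Values are given as CPM, the counts of a gene per 1000000 counts of its library. The SPONT libraries were less alike than the CNTF libraries. The median gene of SPONT 2 lay 0.262 (log2) from the mean of the other 3 SPONT libraries and that of SPONT 1 0.2, against 0.0899 and 0.113 for SPONT 3 and 4 and 0.0755 to 0.0978 for the CNTF libraries. SPONT 2 was over 0.5 (log2) from the others in 20.4% of 14879 genes and SPONT 1 in 10.5%, and no CNTF library in more than 1.25%. SPONT 2 therefore stands apart. Results that rest on it are given with and without it, and the count of a list, over the members tested in the full set, is given again where leaving out SPONT 2 or another library moved it by over 1.5 times. The labelled differentiation was visible in the astroglial filament gene Gfap, at 6279–9858 CPM in SPONT and 21571–22548 CPM in CNTF. Its mean was 15.2 CPM in the undifferentiated NPC P15 group. The progenitor gene Sox2, at 624–799.9 CPM in SPONT and 694–743 CPM in CNTF, had a lower mean in NPC P15, 336 CPM. Nes, a progenitor filament gene, had a higher mean there, 1458 CPM, than in SPONT (255 CPM) and CNTF (467 CPM). The ESC markers Zfp42, Dppa4 and Dppa5a were at 0 in all 8 libraries.

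A differentially expressed gene (DEG) had an adjusted p below 0.01 in edgeR's quasi-likelihood test, with Benjamini-Hochberg adjustment over all genes tested. With CNTF 2961 of 14879 genes (19.9%) were DEGs, 1600 higher (10.8%) and 1361 lower (9.15%), and the median log2FC of all genes tested was -0.01. The large changes were mostly rises: 227 DEGs had a log2FC of 2 or more and 103 one of -2 or less. Without SPONT 2 there were 2948 higher (19.6% of 15039) and 3101 lower DEGs (20.6%), so more genes passed the test once this library was left out. Without CNTF 1, 2 or 3 the lower DEGs numbered 873, 898 and 840. The CPM ranges of the groups did not overlap in 4865 of the 14879 genes (32.7%). The counts of each gene list below are to be set beside 10.8% higher, 9.15% lower and 32.7% without overlap. Some genes are on several lists, so the counts of the lists are not independent. The map of genes chosen as anchors of the gene lists shows the values library by library.

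**Figure D1:**
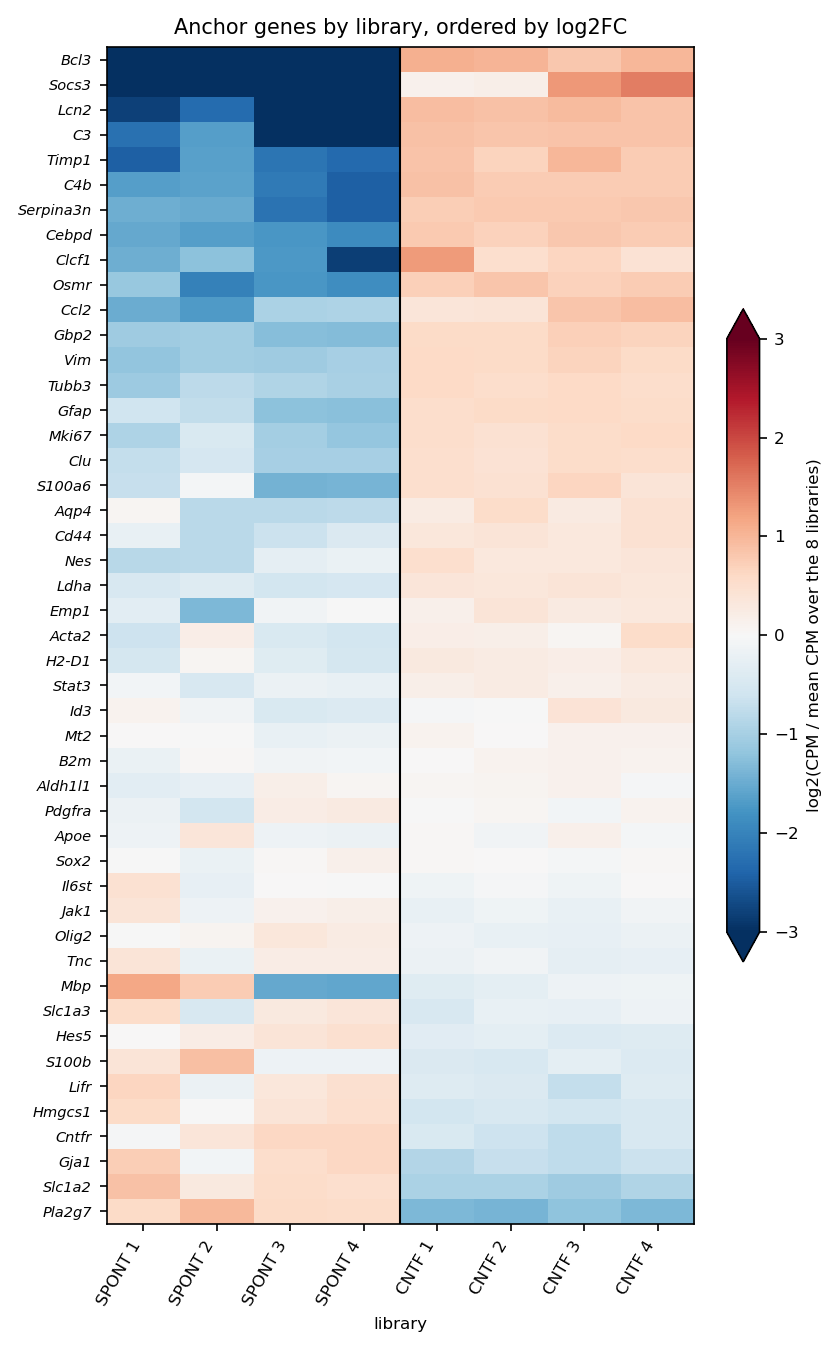
Level of each anchor gene (rows, ordered by log2FC) in each of the 8 libraries (columns), as log2 of its CPM over its mean CPM in the 8 libraries, with colours saturating at -3 and 3. Bcl3, Socs3, Lcn2 and C3 were far below their mean in all 4 SPONT libraries, Pla2g7, Slc1a2 and Gja1 were below it in all 4 CNTF libraries, and Mbp split SPONT 1 and 2 from SPONT 3 and 4.

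Of the CNTF-family ligands, 11 genes listed and 6 tested, Cntf and Clcf1 rose and none fell (median log2FC 0.34, against -0.01 for all genes; 1 fell without SPONT 1). The Cntf transcript itself stood at 1.38, 1.38, 1.15 and 0.788 CPM in SPONT 1 to 4 and 3.22, 2.42, 2.91 and 2.69 CPM in CNTF 1 to 4 (log2FC 1.28 ± 0.21 SE, adjusted p = 0.00098). Each CNTF library was above every SPONT library, at a low level. Clcf1, which encodes a further ligand of CNTF receptor alpha, rose from 0.210 to 1.15 CPM (log2FC 2.47 ± 0.36 SE, adjusted p = 0.0004). Ctf1 (cardiotrophin-1) stood at 1.58 ± 0.314 CPM in SPONT and 2.41 ± 0.0806 CPM in CNTF (SD, n = 4 each), with an adjusted p of 0.016. Lif was at 0.651–0.997 CPM in SPONT and 0.425–1.01 CPM in CNTF and Il11 at 0.0442–0.193 CPM in SPONT and 0.0327–0.235 CPM in CNTF, with overlapping ranges, and Osm, Il27 and Il31 had 0 counts in all 8 libraries.

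The receptors moved in different directions: of 6 tested 1 rose and 2 fell, and 2 rose without SPONT 2. Cntfr, the receptor alpha chain that binds CNTF (chr4:41657498-41697091 on GRCm38), stood at 54.8, 72.2, 86.2 and 86.6 CPM in SPONT 1 to 4 and 40.7, 36.6, 33.1 and 40.5 CPM in CNTF 1 to 4 (log2FC -0.97 ± 0.14 SE, adjusted p = 0.00034). The lowest SPONT library, SPONT 1, was still above the highest CNTF library. Lifr, the LIF receptor chain (chr15:7090610-7197489), was at 37.6, 21.3, 30.5 and 33.4 CPM in SPONT 1 to 4 and 18.3, 17.7, 14.7 and 18.3 CPM in CNTF 1 to 4 (log2FC -0.81 ± 0.15 SE, adjusted p = 0.002). SPONT 2 came closest to the CNTF libraries, and without it the fall of Lifr was larger (log2FC -0.94 ± 0.09 SE, adjusted p = 6.9e-06). Il6st, which encodes gp130 (chr13:112464070-112506860), ranged over 146–238 CPM in SPONT and 158–174 CPM in CNTF, with overlapping ranges (log2FC -0.12 ± 0.12 SE, adjusted p = 0.48). Osmr, the oncostatin M receptor that also pairs with gp130 (chr15:6813568-6874968), rose in contrast, from 13.3, 7.13, 8.71 and 8.01 CPM in SPONT 1 to 4 to 47.9, 52.0, 47.4 and 49.3 CPM in CNTF 1 to 4 (log2FC 2.42 ± 0.17 SE, adjusted p = 3e-06). All 4 CNTF libraries lay within a narrow band above the SPONT libraries, among which SPONT 1 was highest. Il6ra was at 2.86 ± 0.300 CPM in SPONT and 4.17 ± 0.658 CPM in CNTF (adjusted p = 0.018), and Il11ra1 at 30.0 ± 3.18 CPM in SPONT and 27.1 ± 1.72 CPM in CNTF (adjusted p = 0.34). Levels of different genes were compared as FPKM, the CPM per kilobase of exon. Il6st was at 16.4 ± 3.52 FPKM in SPONT and 14.9 ± 0.734 FPKM in CNTF, and Cntfr at 26.9 ± 5.40 FPKM in SPONT and 13.6 ± 1.30 FPKM in CNTF. Lifr was at 2.85 ± 0.642 FPKM in SPONT and 1.60 ± 0.157 FPKM in CNTF, and Osmr at 0.767 ± 0.228 FPKM in SPONT and 4.06 ± 0.169 FPKM in CNTF, so Osmr exceeded Lifr per length in CNTF and was under it in SPONT.

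Among the JAK kinases and STATs, 2 of 10 tested genes rose and none fell, whereas without SPONT 2 there were 3 rises and 2 falls. Stat3, the main transcription factor of the pathway (chr11:100886806-100939594), stood at 251, 191, 233 and 227 CPM in SPONT 1 to 4 and 298, 313, 292 and 315 CPM in CNTF 1 to 4 (log2FC 0.46 ± 0.08 SE, adjusted p = 0.0012). The groups did not overlap. Jak3, a kinase best known from lymphoid cytokine receptors, rose from 10.8–15.3 CPM in SPONT to 33.1–39.2 CPM in CNTF (log2FC 1.54 ± 0.13 SE, adjusted p = 9.9e-06). Jak1, a kinase that gp130 uses, was at 144 ± 22.1 CPM in SPONT and 116 ± 4.52 CPM in CNTF and did not pass the test (adjusted p = 0.035), and without SPONT 2 it did (log2FC -0.37 ± 0.07 SE, adjusted p = 0.00057). Jak2 (0.13 ± 0.12), Tyk2 (-0.04 ± 0.09), Stat2 (-0.03 ± 0.12) and Stat5b (-0.21 ± 0.12; log2FC ± SE) were not called.

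The feedback inhibitors of the pathway were led by Socs3, which blocks gp130-bound JAK kinases (chr11:117966079-117970336). It stood at 6.02, 5.84, 6.75 and 6.75 CPM in SPONT 1 to 4 and 67.3, 69.5, 149.8 and 177 CPM in CNTF 1 to 4 (log2FC 4.21 ± 0.33 SE, adjusted p = 5.7e-06). The SPONT libraries were nearly equal, whereas CNTF 3 and 4 lay well above CNTF 1 and 2. The early genes Fos and Junb split the CNTF libraries in the same way. Socs2 rose from 3.14 to 8.13 CPM (log2FC 1.39 ± 0.13), Socs1 from 4.11 to 10.4 CPM (1.36 ± 0.12) and Cish from 4.42 to 7.88 CPM (0.85 ± 0.14). Pias1, a SUMO ligase that restrains STAT proteins, fell (log2FC -0.53 ± 0.10 SE, adjusted p = 0.0018), the 1 fall among the 16 tested in the full set, but without SPONT 2 there were 4 falls. The other 11 were not called in the full set, among them Ptpn11 at 196 ± 35.0 CPM in SPONT and 181 ± 8.32 CPM in CNTF, Ptpn1 at 108 ± 5.54 CPM in SPONT and 117 ± 7.04 CPM in CNTF and Ptpn2 at 29.7 ± 4.76 CPM in SPONT and 25.7 ± 1.69 CPM in CNTF. Socs4 (log2FC -0.87 ± 0.33) and Pias2 (-0.29 ± 0.12) were below 0 without passing the test.

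The promoter of Socs3 is shown because, of the 9 gp130 feedback and reactive genes searched, it alone held the spacing recognised by STAT dimers, TTCNNNGAA (the motif reads the same on both strands). The match, in capitals below, begins 154 bases before the RefSeq start used here, which lies inside the gene span given above. The whole stretch printed lies at chr11:117969501-117969530 on the minus strand of GRCm38.p6, and its sequence is from RefSeq.
Socs3: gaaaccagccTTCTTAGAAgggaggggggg
Gfap, Stat3, Serpina3n, Osmr, Bcl3, Timp1, C3 and Lcn2 had no match in the 250 bases before their starts, and Cebpd had no promoter in the table used. Over all promoters 2197 of 27025 (8.13%) held a match. The share was 7.07% (800 of 11319) among genes tested, 7.07% (87 of 1230) among DEGs higher with CNTF and 6.97% (73 of 1048) among DEGs lower. Among DEGs with a log2FC of 2 or more, a class set after the values were seen, 19 of 171 (11.1%) held it. A match in these letters is a description and no evidence of binding.

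Transcription factors and early genes known as STAT3 targets were higher in 11 of 18 tested and lower in none, with a median log2FC of 0.62 (1 lower without SPONT 2 or SPONT 4). Bcl3, an I-kappa-B family cofactor (chr7:19808462-19822824), was near 0 in SPONT and well above it in CNTF, at 0.729, 1.11, 0.693 and 0.290 CPM in SPONT 1 to 4 and 51.5, 49.3, 43.0 and 49.2 CPM in CNTF 1 to 4 (log2FC 6.12 ± 0.28 SE, adjusted p = 1.5e-07). Cebpd, a transcription factor of the acute-phase response (chr16:15887286-15889545), stood at 50.4, 46.7, 43.9 and 39.9 CPM in SPONT 1 to 4 and 254, 236, 258 and 248 CPM in CNTF 1 to 4 (log2FC 2.48 ± 0.09 SE, adjusted p = 3.2e-08). The libraries of each group were close together. Junb rose from 16.6–23.9 CPM in SPONT to 96.0–215 CPM in CNTF (log2FC 2.88 ± 0.29). Fos, which pairs with Jun proteins, was at 109, 76.7, 90.4 and 93.8 CPM in SPONT 1 to 4 and 168, 171, 419 and 461 CPM in CNTF 1 to 4 (log2FC 1.75 ± 0.32 SE, adjusted p = 0.002). CNTF 3 and 4 were again the highest. Ier3 (1.94 ± 0.20), Pim1 (0.98 ± 0.14), Klf4 (0.88 ± 0.20), Atf3 (0.77 ± 0.17), Nfil3 (0.48 ± 0.09) and Klf6 (0.47 ± 0.08; log2FC ± SE) rose by less. Myc stood at 155 ± 11.8 CPM in SPONT and 161 ± 24.9 CPM in CNTF and Cebpb at 101 ± 1.33 CPM in SPONT and 117 ± 4.53 CPM in CNTF, neither of them called. Pim3 (-0.52 ± 0.16) and Bcl6 (-0.43 ± 0.15) were below 0 and not called.

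**Figure D2:**
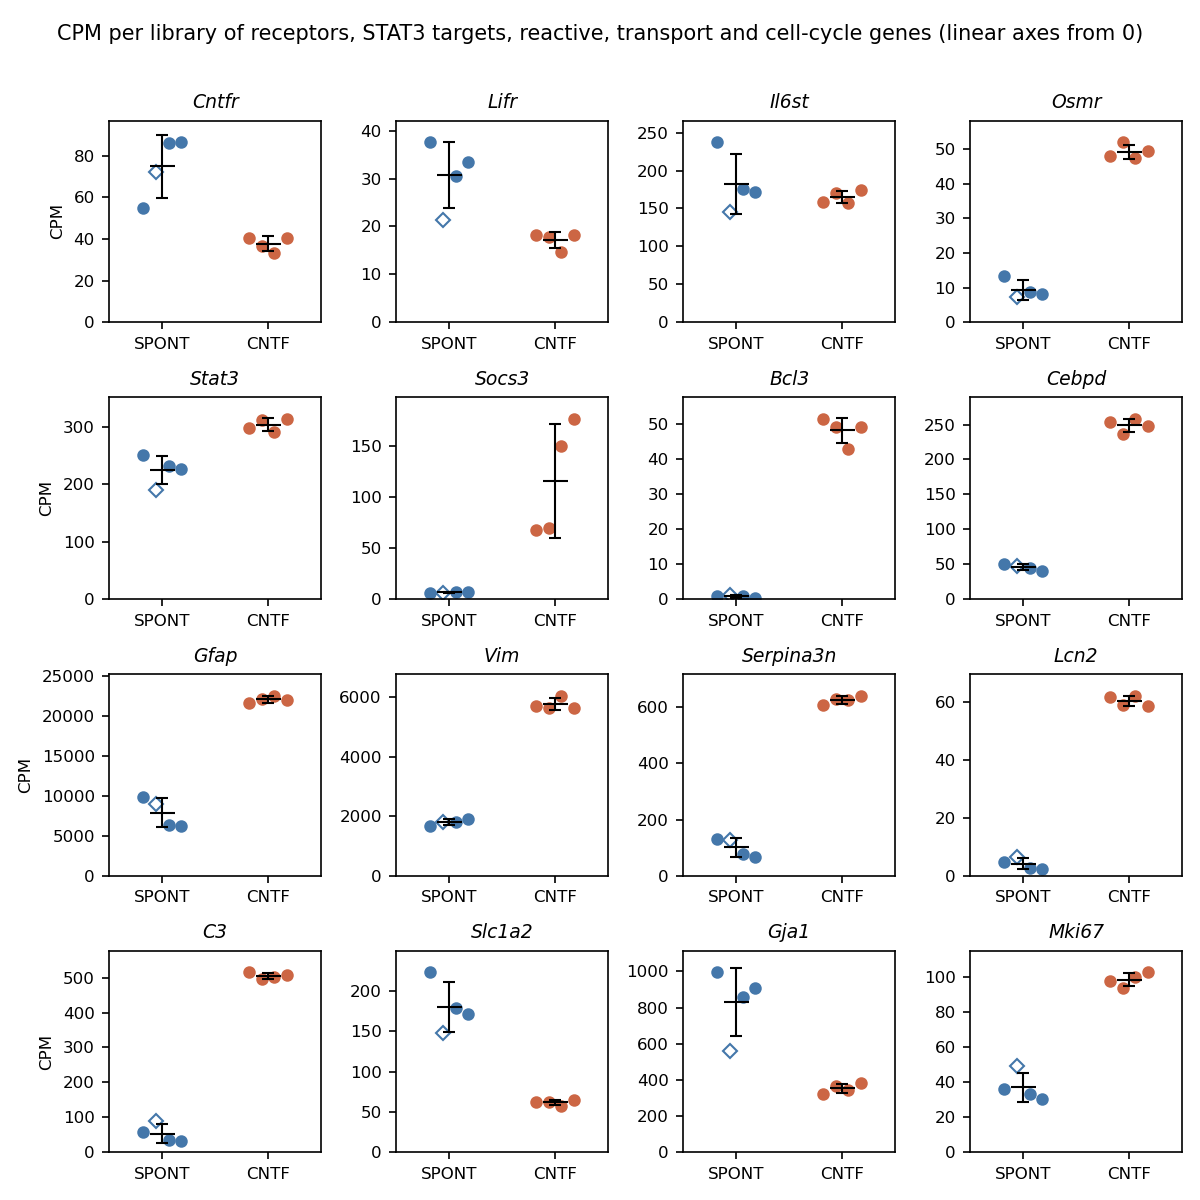
CPM of 16 genes in each library of SPONT (blue, SPONT 2 as an open diamond) and CNTF (orange), with the mean and SD of the 4 libraries in black and linear axes from 0. The groups overlap only for Il6st; Osmr, Bcl3, Cebpd, Gfap, Vim, Serpina3n, Lcn2 and C3 are tightly grouped in CNTF, and Socs3 splits into CNTF 1 and 2 at 67.3 and 69.5 CPM and CNTF 3 and 4 at 149.8 and 177 CPM.

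Secreted acute-phase and protease-inhibitor proteins, which the liver makes under interleukin-6, made up the list with the highest median log2FC along with the pan-reactive genes. Of 26 listed genes 13 were tested, 11 rose and none fell (median 2.60), and the other 13 were too low to test. Summed over the list, SPONT libraries held 291–399 CPM and CNTF libraries 1936–1998 CPM. Serpina3n, a serine protease inhibitor and a widely used reactive astrocyte marker (chr12:104406646-104414334), stood at 132, 127, 78.5 and 66.7 CPM in SPONT 1 to 4 and 607, 629, 625 and 641 CPM in CNTF 1 to 4 (log2FC 2.64 ± 0.21 SE, adjusted p = 7.4e-06). SPONT 1 and 2 were higher than SPONT 3 and 4, and both pairs were far below CNTF. A2m, the broad protease inhibitor alpha-2-macroglobulin, rose from 134–173 CPM in SPONT to 822–859 CPM in CNTF (log2FC 2.52 ± 0.09). Itih4, an inter-alpha-trypsin inhibitor heavy chain (chr14:30886476-30901986), rose from 0.118–0.359 CPM in SPONT to 9.45–10.5 CPM in CNTF (log2FC 5.23 ± 0.24 SE, adjusted p = 1.5e-07), and its neighbour Itih3 (chr14:30908572-30923787) from 27.0–30.8 CPM in SPONT to 109.6–117 CPM in CNTF (log2FC 1.99 ± 0.07 SE, adjusted p = 2.2e-08). Lcn2, an iron-siderophore binding protein (chr2:32384637-32387739), was at 4.65, 6.47, 2.68 and 2.39 CPM in SPONT 1 to 4 and 61.5, 58.9, 62.1 and 58.5 CPM in CNTF 1 to 4 (log2FC 3.91 ± 0.29 SE, adjusted p = 3.9e-06). Timp1, the tissue inhibitor of metalloproteinases (chrX:20870166-20874737), was at 1.35, 2.36, 1.62 and 1.45 CPM in SPONT 1 to 4 and 13.3, 11.6, 14.7 and 12.5 CPM in CNTF 1 to 4 (log2FC 2.96 ± 0.19 SE, adjusted p = 1.5e-06). Lbp, the lipopolysaccharide binding protein, rose from 0.459 to 4.81 CPM (log2FC 3.41 ± 0.24). Serpina3m (2.00 ± 0.20) and Serpina3f (2.14 ± 0.20) rose as well, but reads of this family of near-identical genes can be split between members. Serpina3g (-1.23 ± 0.87) was not called. The liver-type genes Hp, Saa1, Saa2, Saa3, Fga, Fgb, Fgg, Orm1 and Crp were too low to test.

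Of 5 tested intermediate filament genes of glia 3 rose and none fell (median 0.90): Gfap, Vim and Nes passed the test, and Lmna and Synm did not. Without SPONT 2 there were 4 rises and 1 fall. Gfap, the filament protein of astrocytes (chr11:102887336-102897200), stood at 9858, 8983, 6400.5 and 6279 CPM in SPONT 1 to 4 and 21571, 22165, 22548 and 22050.0 CPM in CNTF 1 to 4 (log2FC 1.50 ± 0.14 SE, adjusted p = 2.6e-05). SPONT 1 and 2 lay above SPONT 3 and 4, and all 4 were far below the CNTF libraries. Vim (chr2:13574311-13582826) was at 1656, 1822, 1813 and 1894 CPM in SPONT 1 to 4 and 5713, 5654, 6061 and 5658 CPM in CNTF 1 to 4 (log2FC 1.70 ± 0.06 SE, adjusted p = 4.3e-08). Nes, the filament of progenitors, was at 202, 206, 298 and 314 CPM in SPONT 1 to 4 and 507, 448, 449 and 461 CPM in CNTF 1 to 4 (log2FC 0.90 ± 0.14 SE, adjusted p = 0.00059). Per length of exon, Gfap was at 1870 ± 430 FPKM in SPONT and 5240 ± 95.5 FPKM in CNTF. Vim followed at 379 ± 21.2 FPKM in SPONT and 1220 ± 41.0 FPKM in CNTF and Nes at 39.7 ± 9.25 FPKM in SPONT and 72.7 ± 4.34 FPKM in CNTF. Prph, the filament peripherin best known from peripheral neurons (chr15:99053579-99058978), was on no list and rose from 0.401–0.740 CPM in SPONT to 15.3–16.5 CPM in CNTF (log2FC 4.78 ± 0.17 SE, adjusted p = 3.2e-08). Lmna was at 114 ± 21.3 CPM in SPONT and 153 ± 7.37 CPM in CNTF (adjusted p = 0.02) and Synm at 17.2 ± 3.58 CPM in SPONT and 14.4 ± 1.40 CPM in CNTF.

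Published panels of reactive astrocyte genes were followed as pan-reactive, A1 (neuroinflammation) and A2 (ischemia) lists, and members of each rose while none fell, except for 1 A2 gene without SPONT 2. Of 13 pan-reactive genes 12 rose (median 2.60), of 11 tested A1 genes 6 rose (median 1.15), and of 13 A2 genes 7 rose (median 0.94). S1pr3, a sphingosine-1-phosphate receptor, rose from 39.0–68.4 CPM in SPONT to 673–751 CPM in CNTF (log2FC 3.82 ± 0.18). Steap4, a metalloreductase, rose from 2.53–5.56 CPM in SPONT to 32.8–36.4 CPM in CNTF (3.35 ± 0.23). Hspb1, a small heat shock protein, rose from 41.1–78.7 CPM in SPONT to 191–219 CPM in CNTF (1.82 ± 0.19), and Cd44, the hyaluronan receptor, from 57.8–86.7 CPM in SPONT to 126–139.7 CPM in CNTF (0.91 ± 0.11). Of the A1 genes Ggta1 (1.90 ± 0.13), Gbp2 (1.82 ± 0.09), Psmb8 (1.68 ± 0.31), Serping1 (4.15 ± 0.18), H2-D1 and H2-T23 rose, while Fbln5 (-0.51 ± 0.15), Fkbp5 (0.34 ± 0.09) and Amigo2 (-0.05 ± 0.26) were not called. Gbp2, an interferon-inducible GTPase (chr3:142620663-142638008), was even in both groups, at 27.4, 27.7, 23.4 and 23.3 CPM in SPONT 1 to 4 and 85.6, 85.4, 93.4 and 90.3 CPM in CNTF 1 to 4. Of the A2 genes Tm4sf1 (3.05 ± 0.18), Ptx3 (2.19 ± 0.15) and Cd109 (1.47 ± 0.14) rose, as did Cd14, a lipopolysaccharide co-receptor, from 2.11–2.88 CPM in SPONT to 22.2–24.9 CPM in CNTF (log2FC 3.23 ± 0.13 SE, adjusted p = 6.2e-08). Emp1, a membrane protein of the A2 list, was at 36.7, 17.8, 42.2 and 45.3 CPM in SPONT 1 to 4 and 50.5, 59.6, 54.7 and 56.7 CPM in CNTF 1 to 4. Its ranges did not overlap, it missed the threshold (adjusted p = 0.039), and it passed without SPONT 2, the lowest library (log2FC 0.46 ± 0.08 SE, adjusted p = 0.00053).

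**Figure D3:**
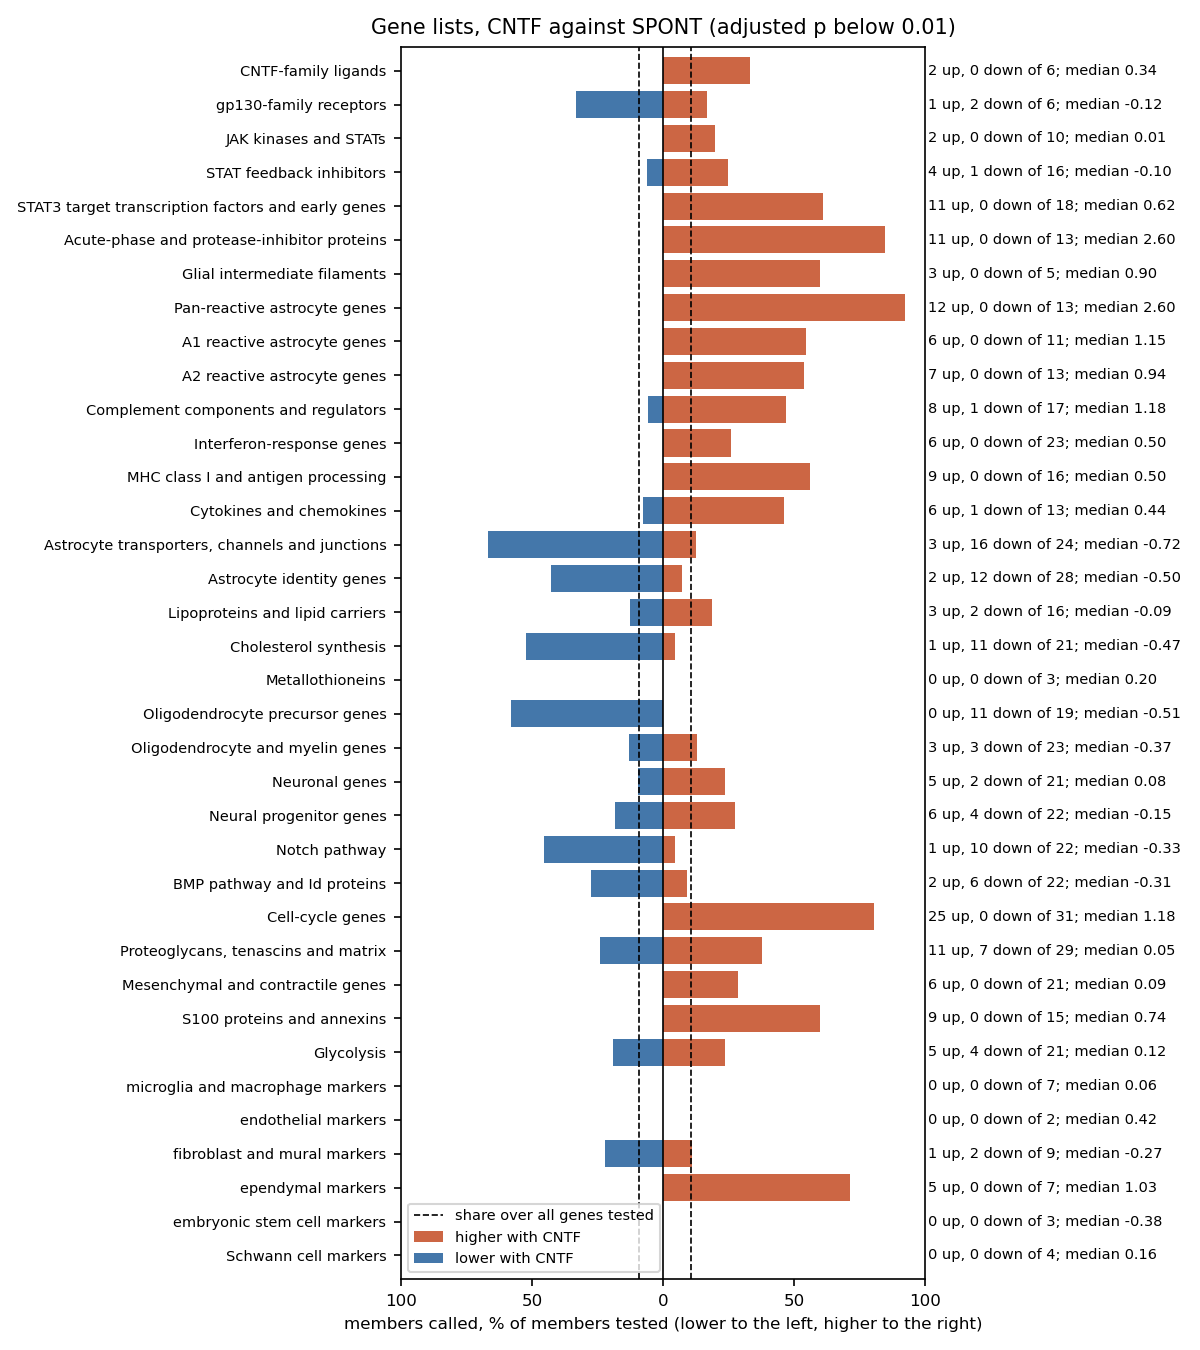
For each of 36 gene lists, the percent of tested members called higher (orange, to the right) and lower (blue, to the left) with CNTF, with the counts and the median log2FC beside each bar. Dashed lines mark the shares over all genes tested, 10.8% higher and 9.15% lower. Cell-cycle, pan-reactive and acute-phase genes extend farthest to the right, and transporters, oligodendrocyte precursor and cholesterol synthesis genes farthest to the left.

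Of 17 tested complement genes 8 rose and 1 fell (median 1.18; 5 rose without CNTF 1 or SPONT 4), and the list summed to 75.5–150.8 CPM in SPONT and 706–739 CPM in CNTF. C3, the central component (chr17:57203967-57228136), stood at 59.1, 89.2, 34.7 and 31.7 CPM in SPONT 1 to 4 and 515, 495, 501 and 507 CPM in CNTF 1 to 4 (log2FC 3.24 ± 0.31 SE, adjusted p = 2.3e-05). SPONT 2 was the highest SPONT library and still far below any CNTF library, and without it the rise was larger (log2FC 3.63 ± 0.19 SE, adjusted p = 2.9e-08). C4b (chr17:34728139-34743902) was at 27.6, 28.3, 19.9 and 16.0 CPM in SPONT 1 to 4 and 159, 148, 148 and 148 CPM in CNTF 1 to 4 (log2FC 2.73 ± 0.18 SE, adjusted p = 1.7e-06). Its near-identical copy C4a, at 0.712 CPM in CNTF, can share reads with it. Serping1, the C1 inhibitor (chr2:84765360-84775444), was at 0.547, 0.917, 0.604 and 0.581 CPM in SPONT 1 to 4 and 11.0, 11.0, 13.0 and 11.2 CPM in CNTF 1 to 4 (log2FC 4.15 ± 0.18 SE, adjusted p = 1.2e-07). The membrane regulators Cd55 (2.20 ± 0.19) and Cd59a (1.67 ± 0.29) and the proteases C1ra (1.38 ± 0.27) and C1s1 (0.93 ± 0.21) rose. Masp1, a protease of the lectin pathway (chr16:23451785-23521240), fell from 6.14–12.8 CPM in SPONT to 3.89–5.45 CPM in CNTF (log2FC -1.21 ± 0.21 SE, adjusted p = 0.0014). Cfb was at 2.26 ± 0.164 CPM in SPONT and 2.72 ± 0.302 CPM in CNTF and not called, and C1rb, C6, C7 and C3ar1 were among those too low to test.

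Of 23 tested interferon-response genes 6 rose and none fell (median 0.50), and 11 rose without SPONT 2. The 6 were Gbp3 (log2FC 2.12 ± 0.13), Gbp2, Irf1 (0.78 ± 0.11), Isg15 (0.95 ± 0.20), Irf9 (0.63 ± 0.10) and Irgm1 (0.60 ± 0.12). The classical antiviral genes Ifit1 (-0.29 ± 0.39), Ifit3 (-0.42 ± 0.36), Rsad2 (-0.93 ± 0.26), Mx2 (-0.29 ± 0.23) and Usp18 (0.03 ± 0.27) were low and not called. Of 16 tested genes of MHC class I antigen presentation 9 rose, none fell and the median was 0.50, and without 1 of the libraries other than SPONT 2 as few as 6 rose. Tap1 (0.83 ± 0.11), Tap2 (0.82 ± 0.15), Psmb9 (1.47 ± 0.26), Tapbp (0.37 ± 0.06) and the heavy chains H2-K1 (0.55 ± 0.11) and H2-D1 (0.59 ± 0.14) were among them. H2-D1 stood at 11.7, 17.7, 13.3 and 11.8 CPM in SPONT 1 to 4 and 20.6, 20.0, 19.6 and 21.0 CPM in CNTF 1 to 4, and reads of these near-identical chains may be split. Its call was lost when any of 7 libraries, all but SPONT 2, was left out (adjusted p up to 0.027). B2m, their light chain, was at 128 ± 8.31 CPM in SPONT and 144 ± 5.39 CPM in CNTF (adjusted p = 0.063), and without SPONT 2 it passed (log2FC 0.25 ± 0.06 SE, adjusted p = 0.0023).

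Of 13 tested cytokines and chemokines 6 rose and 1 fell, and 3 fell without SPONT 2. The rises were Ccl2, the monocyte chemoattractant (log2FC 1.89 ± 0.27 SE, adjusted p = 0.00037), Ccl7 (log2FC 1.39 ± 0.32), Cxcl14 (1.74 ± 0.14), Il34 (1.87 ± 0.42), Tgfb1 (1.55 ± 0.14) and Tgfb3 (0.72 ± 0.10). Ccl2 remained low, at 0.225–0.387 CPM in SPONT and 0.949–1.40 CPM in CNTF. Cxcl12, the ligand of Cxcr4, fell from 7.70–11.5 CPM in SPONT to 4.74–7.09 CPM in CNTF (log2FC -0.71 ± 0.15 SE, adjusted p = 0.0041), a call lost without SPONT 3 or 4 or CNTF 1, 3 or 4 (adjusted p up to 0.017). Csf1 was at 83.5 ± 9.65 CPM in SPONT and 102 ± 6.52 CPM in CNTF and Mif at 230.1 ± 44.1 CPM in SPONT and 247 ± 6.18 CPM in CNTF, both uncalled, and the inflammatory cytokines Il1a, Il1b and Tnf were too low to test.

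Transporters, channels and junction proteins of mature astrocytes were mostly lower. Of 24 tested 16 fell and 3 rose, with a median log2FC of -0.72. The groups did not overlap in 22 of the 24, beside 32.7% of all genes tested. Only 1 rose without SPONT 3 or 4 or CNTF 2 or 4. Slc1a2, the glutamate transporter GLT-1 (chr2:102658239-102790784), stood at 223, 148, 178 and 171 CPM in SPONT 1 to 4 and 62.4, 62.7, 57.8 and 65.2 CPM in CNTF 1 to 4 (log2FC -1.52 ± 0.11 SE, adjusted p = 3.3e-06). Slc1a3, the glutamate transporter GLAST, was at 644, 312, 532 and 559 CPM in SPONT 1 to 4 and 314, 374, 365 and 391 CPM in CNTF 1 to 4. SPONT 2 was below every CNTF library and the other SPONT libraries were above all of them, so the fall was called without SPONT 2 (log2FC -0.64 ± 0.08 SE, adjusted p = 4.9e-05) and not with it (log2FC -0.48 ± 0.17 SE, adjusted p = 0.056). Slc4a4, a sodium bicarbonate cotransporter (chr5:88793858-89239656), fell from 149–314 CPM in SPONT to 33.0–39.8 CPM in CNTF (log2FC -2.52 ± 0.19 SE, adjusted p = 5.2e-06). The GABA transporter Slc6a11 (log2FC -1.80 ± 0.17) and the glycine transporter Slc6a9 (-1.56 ± 0.09) fell as well. Gja1, the gap junction protein connexin 43 (chr10:56377300-56390419), was at 995, 562, 858 and 910.2 CPM in SPONT 1 to 4 and 325, 367, 348 and 381 CPM in CNTF 1 to 4 (log2FC -1.20 ± 0.14 SE, adjusted p = 9.9e-05). SPONT 2 was again the lowest of its group and still above CNTF. Cldn10, a claudin, fell from 1.32–1.77 CPM in SPONT to 0.174–0.359 CPM in CNTF (log2FC -2.52 ± 0.26 SE, adjusted p = 3.5e-05), and Glul, glutamine synthetase, from 326–489.8 CPM in SPONT to 264–290.2 CPM in CNTF (log2FC -0.67 ± 0.11). The rises were Aqp4, the water channel of astrocyte endfeet, at 99.3, 54.0, 54.7 and 55.3 CPM in SPONT 1 to 4 and 113, 138, 116 and 131 CPM in CNTF 1 to 4 (log2FC 0.94 ± 0.19 SE, adjusted p = 0.0032, a call lost without SPONT 3 or 4 or CNTF 2 or 4, adjusted p up to 0.013), the lactate transporter Slc16a1 (0.50 ± 0.12) and the pump subunit Atp1b2 (0.43 ± 0.08). Kcnj10 (0.27 ± 0.12) and Mlc1 (0.24 ± 0.10) were not called.

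Other astrocyte identity genes also moved both ways. Of 28 tested 12 fell and 2 rose (median -0.50). Pla2g7, a lipoprotein-associated phospholipase (chr17:43567994-43612202), stood at 761, 1001, 763 and 746 CPM in SPONT 1 to 4 and 202, 194.4, 223 and 202 CPM in CNTF 1 to 4 (log2FC -1.98 ± 0.11 SE, adjusted p = 7.5e-07). Ndrg2 fell from 4493–5069 CPM in SPONT to 3086–3241 CPM in CNTF (log2FC -0.60 ± 0.06), Agt, angiotensinogen, from 1802–2609 CPM in SPONT to 1022–1130.0 CPM in CNTF (-0.94 ± 0.12), and Sparcl1, a matricellular protein, from 1739.5–2551 CPM in SPONT to 1191–1336 CPM in CNTF (-0.61 ± 0.12). Fgfr2 (-1.15 ± 0.08), Cbs (-0.80 ± 0.06), Pygb (-0.67 ± 0.08) and the transcription factor Nfib (-0.59 ± 0.08) fell too, while Nfia (0.47 ± 0.09) rose. Sox9, the gliogenic transcription factor, was at 429 ± 23.4 CPM in SPONT and 496 ± 33.9 CPM in CNTF, Aldh1l1 at 10.1 ± 1.67 CPM in SPONT and 11.1 ± 0.501 CPM in CNTF and Fgfr3 at 195 ± 33.1 CPM in SPONT and 195 ± 10.8 CPM in CNTF, none of them called. S100b stood at 125, 179, 86.4 and 86.1 CPM in SPONT 1 to 4 and 70.5, 68.7, 78.2 and 71.6 CPM in CNTF 1 to 4. It did not overlap between groups but missed the threshold (adjusted p = 0.029), and it was called without SPONT 2, its highest library (log2FC -0.42 ± 0.12 SE, adjusted p = 0.0091).

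Of 16 lipid carriers 3 rose (18.8%) and 2 fell (12.5%), beside 10.8% and 9.15% of all genes tested, with a median of -0.09. Without SPONT 2 there were 5 falls, and without SPONT 1 there were 4. Apoe, the main lipoprotein of glia (chr7:19696244-19701310), was at 11346, 16179, 11250.0 and 11014 CPM in SPONT 1 to 4 and 12869, 11667, 13813 and 12029 CPM in CNTF 1 to 4 (log2FC 0.03 ± 0.13 SE, adjusted p = 0.87), and without SPONT 2, its highest library, the value was log2FC 0.21 ± 0.06 SE, adjusted p = 0.015. Clu, the apolipoprotein clusterin (chr14:65968483-65981548), rose from 1382, 1603, 1138 and 1134 CPM in SPONT 1 to 4 to 3182, 3059, 3307 and 3267 CPM in CNTF 1 to 4 (log2FC 1.30 ± 0.12 SE, adjusted p = 1.7e-05). Pltp, which transfers phospholipids (1.17 ± 0.12), and Plin2, which coats lipid droplets (1.08 ± 0.10), rose as well. Lpl, lipoprotein lipase (chr8:68880555-68906932), fell from 108–201 CPM in SPONT to 49.1–54.0 CPM in CNTF (log2FC -1.48 ± 0.19 SE, adjusted p = 0.00016). Enzymes of cholesterol synthesis were mostly lower: 11 of 21 fell, 1 rose and the median was -0.47, with a summed level of 2855–3409 CPM in SPONT and 2084–2184 CPM in CNTF. Hmgcs1, which makes HMG-CoA (chr13:119690351-119708260), stood at 805, 542, 708 and 771 CPM in SPONT 1 to 4 and 372, 389, 373 and 389 CPM in CNTF 1 to 4 (log2FC -0.87 ± 0.10 SE, adjusted p = 9.1e-05). Cyp51 (log2FC -0.70 ± 0.06), Msmo1 (-0.82 ± 0.07), Dhcr7 (-0.73 ± 0.07) and the sterol sensor Insig1 (-0.83 ± 0.09) fell, and Ebp rose (log2FC 0.55 ± 0.12 SE, adjusted p = 0.0047), a call lost without SPONT 3 or 4 or CNTF 1, 3 or 4 (adjusted p up to 0.019). Without SPONT 2 there were 2 rises.

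None of the 3 tested metallothioneins, which bind zinc and copper, passed the test in the full set. Mt1 was at 1434 ± 321 CPM in SPONT and 1276 ± 70.4 CPM in CNTF (adjusted p = 0.44), Mt2 at 565 ± 44.9 CPM in SPONT and 642 ± 25.7 CPM in CNTF (0.063) and Mt3 at 700.1 ± 109 CPM in SPONT and 872 ± 70.0 CPM in CNTF (0.051), and Mt4 was at 0. Without SPONT 2, 2 of the 3 passed, Mt2 among them (log2FC 0.25 ± 0.07 SE, adjusted p = 0.0064).

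Genes of oligodendrocyte precursors were lower with CNTF. Of 19 tested 11 fell and none rose (median -0.51; 7 fell without CNTF 1 or CNTF 3, and 1 rose without SPONT 2), and the list summed to 7700–8940 CPM in SPONT and 5007–5468 CPM in CNTF. Gpr17, a receptor of committed precursors, stood at 2322, 1684.2, 1219.6 and 1103 CPM in SPONT 1 to 4 and 411, 440.1, 398 and 466 CPM in CNTF 1 to 4 (log2FC -1.87 ± 0.21 SE, adjusted p = 6.7e-05). It lies within Lims2, which also fell, so reads could be shared. Olig2, a transcription factor of the lineage (chr16:91225550-91228677), was at 799, 858, 1018 and 967 CPM in SPONT 1 to 4 and 731, 695, 683 and 719.9 CPM in CNTF 1 to 4 (log2FC -0.34 ± 0.08 SE, adjusted p = 0.0064), and its call was lost without SPONT 3 or 4 or any CNTF library (adjusted p up to 0.031). Olig1 (log2FC -0.39 ± 0.09), Sox8 (-0.67 ± 0.07), Nkx2-2 (-0.70 ± 0.10), Neu4 (-1.70 ± 0.26) and the proteoglycan Cspg4 (-0.80 ± 0.07) fell. Pdgfra, the precursors' PDGF receptor, was at 150.3, 115, 197 and 202 CPM in SPONT 1 to 4 and 166, 177, 160.0 and 181 CPM in CNTF 1 to 4, with CNTF inside the SPONT range (log2FC 0.07 ± 0.14 SE, adjusted p = 0.76). Sox10, a transcription factor of the whole lineage, was at 64.6, 53.5, 30.0 and 26.3 CPM in SPONT 1 to 4 and 57.7, 55.1, 55.2 and 64.6 CPM in CNTF 1 to 4 (log2FC 0.43 ± 0.25 SE, adjusted p = 0.22).

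Most myelin genes were not called, and in many of them the SPONT libraries themselves fell into 2 levels. Mbp, myelin basic protein, was at 749, 567, 116 and 114 CPM in SPONT 1 to 4 and 259.7, 276, 303 and 308 CPM in CNTF 1 to 4 (log2FC -0.42 ± 0.54 SE, adjusted p = 0.58). SPONT 1 and 2 were above and SPONT 3 and 4 below all CNTF libraries. Cldn11, the tight junction protein of myelin, was at 58.9, 45.3, 15.1 and 14.6 CPM in SPONT 1 to 4 and 49.9, 51.9, 48.0 and 52.8 CPM in CNTF 1 to 4. Mag, the myelin-associated glycoprotein, was at 13.2, 11.0, 2.23 and 2.31 CPM in SPONT 1 to 4 and 9.58, 10.1, 10.7 and 12.1 CPM in CNTF 1 to 4. SPONT 3 and 4 were again the low ones for both. Myrf, the transcription factor of myelination, was at 117, 63.3, 28.9 and 24.9 CPM in SPONT 1 to 4 and 31.1, 34.0, 30.8 and 36.5 CPM in CNTF 1 to 4 (log2FC -0.81 ± 0.41 SE, adjusted p = 0.16). For Opalin (7.97–32.3 CPM in SPONT and 22.3–25.7 CPM in CNTF) all 4 CNTF libraries lay between the pairs. In all, SPONT 1 and 2 were both 1.5-fold away from SPONT 3 and 4 on the same side in 331 of 14879 genes, and CNTF 1 and 2 from CNTF 3 and 4 in 133; no label sets either pair apart. Of the 23 genes of the list 3 rose and 3 fell. The falls numbered 6 without SPONT 2 or SPONT 4, 5 without SPONT 3 and 1 without CNTF 3. Trf, transferrin (chr9:103208876-103230286), rose from 15.6, 18.4, 15.8 and 14.1 CPM in SPONT 1 to 4 to 116, 109, 111 and 111 CPM in CNTF 1 to 4 (log2FC 2.83 ± 0.10 SE, adjusted p = 2.6e-08), as did Nkx6-2 (log2FC 0.66 ± 0.15). Fa2h, which makes the hydroxylated lipids of myelin (chr8:111345138-111393821), fell from 28.4–83.5 CPM in SPONT to 15.5–18.4 CPM in CNTF (log2FC -1.61 ± 0.30 SE, adjusted p = 0.0022; 0.011 without CNTF 3), with Zfp488 (-1.07 ± 0.23) and Gjc3 (-0.78 ± 0.14). The summed level of the list was 1905–3886 CPM in SPONT and 2070–2160 CPM in CNTF.

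**Figure D4:**
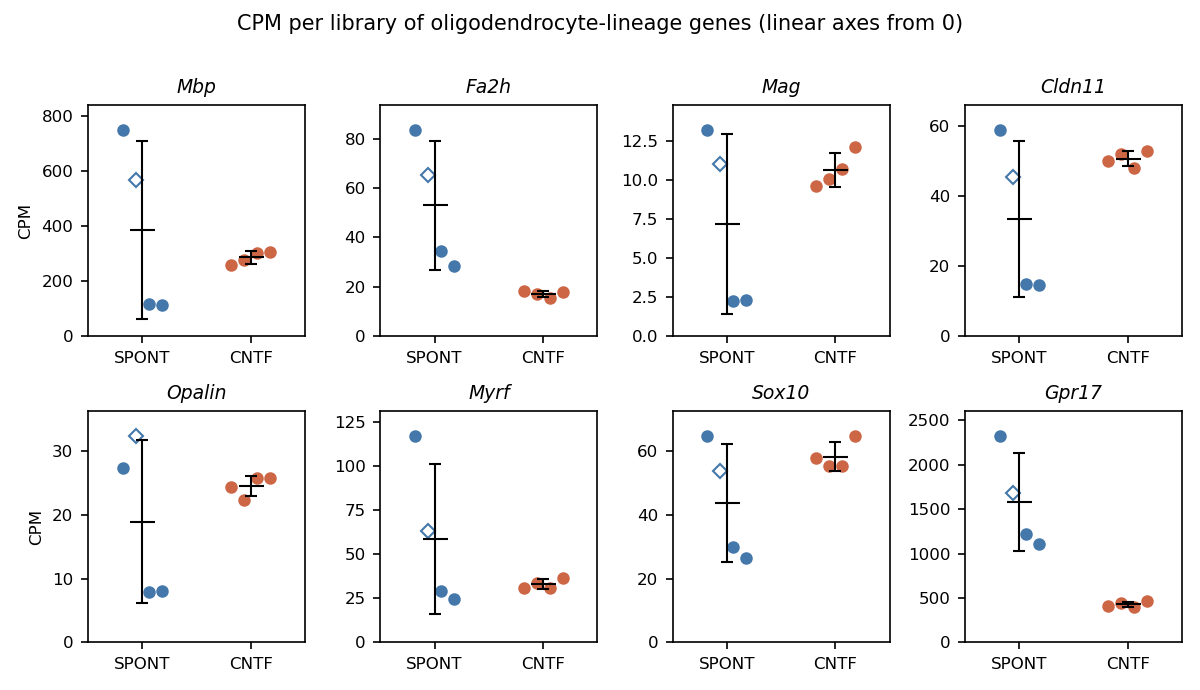
CPM of 8 oligodendrocyte-lineage genes in each library of SPONT (blue, SPONT 2 as an open diamond) and CNTF (orange), with the mean and SD of the 4 libraries in black and linear axes from 0. SPONT 1 and 2 are above SPONT 3 and 4 in each panel, the CNTF libraries lie close together, and only for Fa2h and Gpr17 are they below every SPONT library.

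Of 21 tested neuronal genes 5 rose and 2 fell (median 0.08). Without SPONT 2 there were 8 rises and 3 falls, without any other library but CNTF 2 there were 3 rises, and without CNTF 1, 3 or 4 there was 1 fall. Tubb3, a tubulin of young neurons (chr8:123411553-123422015), stood at 71.8, 88.2, 81.1 and 78.0 CPM in SPONT 1 to 4 and 231, 220.3, 229.7 and 222 CPM in CNTF 1 to 4 (log2FC 1.52 ± 0.08 SE, adjusted p = 3.8e-07). Gap43, a growth-associated protein, rose from 48.3–67.3 CPM in SPONT to 144–158 CPM in CNTF (log2FC 1.49 ± 0.11), and Stmn2, a tubulin regulator, from 0.387–1.19 CPM in SPONT to 2.65–3.60 CPM in CNTF (2.08 ± 0.32). Dcx, the doublecortin of migrating neuroblasts (chrX:143855842-143933396), fell from 28.3–48.2 CPM in SPONT to 12.1–16.7 CPM in CNTF (log2FC -1.29 ± 0.18 SE, adjusted p = 0.00027), and Map2 from 346–599.5 CPM in SPONT to 299–328 CPM in CNTF (-0.69 ± 0.13). Rbfox3 (0.17 ± 0.08), Syp (0.26 ± 0.13), Elavl3 (0.17 ± 0.23) and Snap25 (-0.46 ± 0.53) were not called, and 11 of the 32 listed, Neurod1, Eomes and Gad2 among them, were too low to test.

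Of 22 progenitor genes 6 rose and 4 fell (median -0.15). Without SPONT 2 there were 6 rises and 9 falls (median -0.23), and without any 1 CNTF library 3 rises. Sox2 (log2FC 0.03 ± 0.07 SE, adjusted p = 0.78), Pax6 (-0.19 ± 0.08) and Msi1 (-0.07 ± 0.12) were not called. Ccnd2 (chr6:127125162-127152188) rose from 15.2–26.4 CPM in SPONT to 61.0–67.9 CPM in CNTF (log2FC 1.64 ± 0.14 SE, adjusted p = 1.4e-05), and Ccnd1 from 150.1–189 CPM in SPONT to 292–329 CPM in CNTF (log2FC 0.86 ± 0.08). Egfr, the receptor of the EGF lowered in the medium, fell from 59.2–109 CPM in SPONT to 34.5–39.2 CPM in CNTF (-1.29 ± 0.16). The hedgehog effectors Gli2 (log2FC -1.33 ± 0.10 SE, adjusted p = 3.4e-06) and Gli3 (log2FC -1.15 ± 0.15) fell, with Sox3 (-0.80 ± 0.13). In the Notch pathway 10 of 22 fell and 1 rose (median -0.33; 2 rose without SPONT 2). Hes5 stood at 132, 154, 171 and 183 CPM in SPONT 1 to 4 and 104, 107, 98.2 and 101 CPM in CNTF 1 to 4 (log2FC -0.62 ± 0.09 SE, adjusted p = 0.00045), whereas Hes1, a target of the same pathway, stood at 21.1, 32.3, 30.0 and 33.6 CPM in SPONT 1 to 4 and 44.4, 44.7, 53.4 and 45.5 CPM in CNTF 1 to 4 (log2FC 0.71 ± 0.14 SE, adjusted p = 0.0031, up to 0.014 without SPONT 3 or CNTF 3). Heyl (-1.62 ± 0.33; adjusted p up to 0.015 without CNTF 1, 2 or 3), Notch3 (-1.07 ± 0.17), Jag1 (-0.93 ± 0.17) and Dll3 (-0.55 ± 0.10) fell. In the BMP pathway 6 of 22 fell and 2 rose (median -0.31), against 11 falls and 3 rises without SPONT 2. In the full set the inhibitory helix-loop-helix proteins Id1 (-0.77 ± 0.17), Id2 (-0.79 ± 0.08) and Id4 (-0.69 ± 0.06), the receptor Bmpr1b (-1.09 ± 0.17), the antagonist Nog (-1.15 ± 0.10) and Smad9 (-2.70 ± 0.51; adjusted p = 0.011 without CNTF 3) fell, and Bmp6 (1.37 ± 0.20) and Bmp1 (0.82 ± 0.08) rose. Id3 was at 154, 134, 104 and 108 CPM in SPONT 1 to 4 and 139, 141, 189 and 175 CPM in CNTF 1 to 4, with CNTF 3 and 4 the highest, and was not called (adjusted p = 0.069).

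Cell-cycle genes were mostly higher. Of 31 tested 25 rose and none fell (median 1.18; 1 fell without SPONT 2), and their summed level was 1140–1228 CPM in SPONT and 1944–2016 CPM in CNTF. Mki67, the Ki-67 antigen of dividing cells (chr7:135689784-135716450), stood at 36.0, 49.2, 33.5 and 30.5 CPM in SPONT 1 to 4 and 97.7, 93.9, 100.2 and 103 CPM in CNTF 1 to 4 (log2FC 1.42 ± 0.14 SE, adjusted p = 3.3e-05). The mitotic genes Bub1b (log2FC 1.42 ± 0.09), Birc5 (1.40 ± 0.14), Plk1 (1.36 ± 0.14), Aurkb (1.34 ± 0.10), Top2a (1.36 ± 0.11) and Ccnb1 (1.27 ± 0.20) rose. Bub1b, for example, was at 12.2–16.0 CPM in SPONT and 36.0–36.5 CPM in CNTF. The replication genes Mcm2 (0.47 ± 0.07), Mcm6 (0.65 ± 0.06) and Pcna (0.55 ± 0.06) rose too. The inhibitors Cdkn1a (0.02 ± 0.07), Cdkn1b (-0.23 ± 0.10) and Cdkn2a (-0.03 ± 0.20) were not called.

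Extracellular matrix genes moved both ways, 11 of 29 higher and 7 lower (median 0.05). Fn1, fibronectin (log2FC 1.10 ± 0.09), Thbs2 (2.25 ± 0.11), Lamc1 (1.19 ± 0.13), the galectins Lgals1 (1.86 ± 0.16) and Lgals3 (2.04 ± 0.21), Has2 (1.14 ± 0.21), Timp2 (0.82 ± 0.06) and Timp3 (0.69 ± 0.13) rose. The chondroitin sulfate proteoglycans Bcan (-1.01 ± 0.07), Ncan (-0.68 ± 0.11), Cspg4, Cspg5 (-0.75 ± 0.08) and Acan (-1.74 ± 0.37; adjusted p up to 0.019 without SPONT 3 or CNTF 1, 3 or 4) fell, with Xylt1 (-1.63 ± 0.26), which starts their sugar chains. Bcan, brevican, was at 1228–1499.7 CPM in SPONT and 654–702 CPM in CNTF. Tnc, tenascin C, was at 29.2, 19.6, 26.1 and 26.2 CPM in SPONT 1 to 4 and 20.0, 20.9, 18.6 and 18.9 CPM in CNTF 1 to 4. SPONT 2 was inside the CNTF range, Tnc missed the threshold (adjusted p = 0.033), and it fell without that library (log2FC -0.43 ± 0.07 SE, adjusted p = 0.00041). Of 21 mesenchymal and contractile genes 6 rose and none fell (median 0.09; 1 fell without SPONT 2). Col6a1, a collagen VI chain (chr10:76708792-76726044), rose from 14.9, 10.8, 9.32 and 7.98 CPM in SPONT 1 to 4 to 102, 111, 94.3 and 114 CPM in CNTF 1 to 4 (log2FC 3.31 ± 0.18 SE, adjusted p = 4.4e-07), with Ccn1 (1.39 ± 0.18) and Ccn2 (1.61 ± 0.25). Acta2, smooth muscle actin, was at 1.22, 2.17, 1.39 and 1.30 CPM in SPONT 1 to 4 and 2.16, 2.14, 1.97 and 2.79 CPM in CNTF 1 to 4 (log2FC 0.59 ± 0.22 SE, adjusted p = 0.062). SPONT 2 reached the level of CNTF, and without it Acta2 was called (log2FC 0.84 ± 0.18 SE, adjusted p = 0.0022).

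Of 15 S100 proteins and annexins 9 rose and none fell (median 0.74). S100a4 rose from 7.58–18.5 CPM in SPONT to 78.6–101 CPM in CNTF (log2FC 3.06 ± 0.29), S100a11 from 68.5–96.5 CPM in SPONT to 202–223 CPM in CNTF (1.48 ± 0.12) and Anxa2 from 181–236 CPM in SPONT to 552–647 CPM in CNTF (1.52 ± 0.10). S100a6 was at 15.6, 24.5, 9.49 and 9.71 CPM in SPONT 1 to 4 and 36.2, 34.7, 39.4 and 33.0 CPM in CNTF 1 to 4 (log2FC 1.29 ± 0.28 SE, adjusted p = 0.005). SPONT 2 came nearest to CNTF, and the call was lost when any other library was left out (adjusted p up to 0.017). Anxa1, a mediator that resolves inflammation, was nearly absent in SPONT, at 0.156, 0.209, 0.0442 and 0.0553 CPM in SPONT 1 to 4 and 1.42, 1.90, 1.94 and 1.86 CPM in CNTF 1 to 4 (log2FC 3.94 ± 0.39 SE, adjusted p = 3.2e-05). Without SPONT 2, 13 of the 15 rose and 1 fell. Glycolytic genes moved both ways, 5 of 21 higher and 4 lower (median 0.12). Pfkp, the platelet form of phosphofructokinase (chr13:6579874-6649060), rose from 9.00, 8.72, 5.94 and 5.99 CPM in SPONT 1 to 4 to 28.9, 29.4, 29.9 and 27.2 CPM in CNTF 1 to 4 (log2FC 1.98 ± 0.15 SE, adjusted p = 6.1e-06), whereas Pfkm, the muscle form, fell (log2FC -0.48 ± 0.07). Ldha rose (log2FC 0.85 ± 0.07 SE, adjusted p = 5.2e-06) and Ldhb fell (-0.63 ± 0.10), and Hk1, the main hexokinase of brain, fell from 379–553 CPM in SPONT to 253–282 CPM in CNTF (log2FC -0.73 ± 0.12 SE, adjusted p = 0.00086).

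Over all genes, the DEGs that rose most, where either group averaged 10 CPM or more, were Cdsn, Bcl3, Ccn5, C1qtnf1, Itih4, Cyp4b1, Prph, Psors1c2, Socs3 and Fcgr2b. Cdsn, the corneodesmosin of skin (chr17:35543101-35557180), stood at 1.06, 0.579, 0.604 and 0.636 CPM in SPONT 1 to 4 and 69.5, 75.1, 71.4 and 77.2 CPM in CNTF 1 to 4 (log2FC 6.68 ± 0.17 SE, adjusted p = 3.6e-09), and its neighbour Psors1c2 (chr17:35533201-35534647) rose from 0.586–0.885 CPM in SPONT to 11.9–15.1 CPM in CNTF (log2FC 4.27 ± 0.16 SE, adjusted p = 4.7e-08). Ccn5, a matricellular protein also known as WISP2 (chr2:163820752-163833146), was at 0.664, 0.772, 0.855 and 0.567 CPM in SPONT 1 to 4 and 39.6, 40.1, 40.2 and 39.5 CPM in CNTF 1 to 4 (log2FC 5.82 ± 0.13 SE, adjusted p = 2e-09). In both genes the libraries of each group were close together and the groups far apart. C1qtnf1, a secreted C1q-like protein (chr11:118428457-118451782), rose from 0.560–1.08 CPM in SPONT to 28.3–30.1 CPM in CNTF (log2FC 5.31 ± 0.18 SE, adjusted p = 2.6e-08). Cyp4b1, a cytochrome P450 (chr4:115624698-115647721), rose from 1.28–1.62 CPM in SPONT to 39.7–44.0 CPM in CNTF (log2FC 4.84 ± 0.10 SE, adjusted p = 2e-09), and Fcgr2b, the inhibitory Fc receptor (chr1:170960558-170976071), from 0.398–1.13 CPM in SPONT to 12.9–15.1 CPM in CNTF (log2FC 4.20 ± 0.24 SE, adjusted p = 8.2e-07).

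Among the largest falls were Synpo2l, Pygm, Ptprt, St8sia5, Myh8, Alpl, Slc4a4, Dapk2 and Adcy8. Pygm, the muscle form of glycogen phosphorylase (chr19:6384408-6398464), stood at 22.6, 24.4, 19.2 and 16.7 CPM in SPONT 1 to 4 and 2.40, 1.85, 1.50 and 1.70 CPM in CNTF 1 to 4 (log2FC -3.45 ± 0.18 SE, adjusted p = 4e-07). Synpo2l, an actin-binding protein (chr14:20658945-20668354), fell from 9.38–23.9 CPM in SPONT to 1.35–1.88 CPM in CNTF (log2FC -3.52 ± 0.29 SE, adjusted p = 9.8e-06), with SPONT 1 and 2 lower than SPONT 3 and 4. Ptprt, a receptor phosphatase that dephosphorylates STAT3 (chr2:161521988-162661147), was at 21.5, 14.1, 18.3 and 17.1 CPM in SPONT 1 to 4 and 1.63, 1.87, 2.12 and 2.45 CPM in CNTF 1 to 4 (log2FC -3.12 ± 0.17 SE, adjusted p = 4.2e-07). All of its SPONT libraries were several-fold above all CNTF libraries. St8sia5, a sialyltransferase, fell from 17.3–19.5 CPM in SPONT to 2.04–2.96 CPM in CNTF (log2FC -2.93 ± 0.13 SE, adjusted p = 1.2e-07), Alpl, alkaline phosphatase, from 16.6–24.4 CPM in SPONT to 3.13–3.84 CPM in CNTF (log2FC -2.55 ± 0.14 SE, adjusted p = 4.3e-07), and Adcy8, an adenylyl cyclase, from 73.1–108 CPM in SPONT to 15.3–19.6 CPM in CNTF (log2FC -2.40 ± 0.13 SE, adjusted p = 3.8e-07). Dapk2, a kinase of cell death (-2.50 ± 0.21), and Myh8, a muscle myosin (-2.59 ± 0.15), fell as well.

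Most markers of cell types that the culture was not meant to hold were low, but the ependymal marker Foxj1 and the mural marker Cspg4 were not. Those of microglia and macrophages summed to 2.62–6.16 CPM over 14 genes in SPONT and 3.19–3.67 in CNTF, 13 of the 14 were under 1 CPM in all 8 libraries, and none of 7 tested was called. C3, Cd14 and Fcgr2b, which rose, are also made by macrophages, and the source of their RNA was not tested. Those of endothelium, over 9 genes, summed to 1.01–1.65 CPM in SPONT and 1.36–1.88 in CNTF, with none called. Of these markers, Ptprc had a mean of 0.0360 CPM in SPONT and 0.0344 in CNTF, and Itgam of 0.0255 and 0.0594. Fibroblast and mural markers summed to 206–236 CPM in SPONT and 125–135 in CNTF, almost all of it Cspg4, which precursors also express. Of the 9 tested 1 rose and 2 fell. Rgs5, a pericyte marker, rose from 0.0138–0.247 CPM in SPONT to 0.508–0.767 CPM in CNTF (log2FC 2.43 ± 0.53 SE, adjusted p = 0.0057), a call lost without SPONT 3 or any 1 CNTF library, and 2 rose without SPONT 2. Cspg4 fell, and Pdgfrb, the PDGF receptor of pericytes, fell from 2.03–3.35 CPM in SPONT to 0.0905–0.374 CPM in CNTF (log2FC -3.40 ± 0.34 SE, adjusted p = 2.9e-05), and Dcn, Lum and Col1a2 were under 1 CPM. Schwann cell markers summed to 8.06–11.8 CPM in SPONT and 9.02–18.2 in CNTF, with none of 4 tested called, and those of ESC to 2.07–2.84 and 1.26–1.98 CPM. Ependymal markers summed to 161–188 CPM in SPONT and 356–358 in CNTF, most of it Foxj1, and 5 of 7 tested rose (median 1.03). Foxj1, the regulator of motile cilia, was at 149, 151, 169 and 177 CPM in SPONT 1 to 4 and 325, 326, 326 and 327 CPM in CNTF 1 to 4 (log2FC 1.03 ± 0.07 SE, adjusted p = 1.5e-06), and Cfap126 (log2FC 1.36 ± 0.14), Rsph1 (1.82 ± 0.18), Dynlrb2 (1.01 ± 0.12) and Ccdc153 (3.46 ± 0.38) rose. The axonemal genes Hydin and Dnah12 and the marker Tmem212 stayed under 1 CPM in all 8 libraries. The part of these cells in the results was not tested.

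To place these levels, those of other groups of the series are set beside them without a test; all are of RiboTag-bound RNA of C57BL/6 origin. NPC P15 and NPC P15 D3 are undifferentiated progenitors of the first and another derivation. IGF-1 and 1% FBS are 4-day cultures in the SPONT medium with that addition (n = 4 each). Healthy (n = 9) and SCI (n = 5) astrocytes are of mice in which the 73.12 Gfap promoter drives Cre, the latter 14 days after crush injury of the spinal cord. The myelin gene Mbp was at 4312 ± 832 CPM in healthy and 19618 ± 3926 CPM in SCI astrocytes (SD). It was at 386 ± 322 CPM in SPONT and 287 ± 22.7 CPM in CNTF. How much RNA of other cells these astrocyte preparations held was not tested. Socs3 was at 4.22 ± 2.20 CPM in NPC P15, 9.47 ± 1.34 in IGF-1, 22.4 ± 3.97 in 1% FBS, 1.97 ± 0.775 in healthy astrocytes and 17.9 ± 6.43 in SCI astrocytes (SD), all below CNTF at 116 ± 55.9. Bcl3 was at 1.44 ± 0.121 CPM in IGF-1, 2.81 ± 1.04 in healthy and 39.6 ± 7.41 in SCI astrocytes, against 48.2 ± 3.66 in CNTF. Osmr was at 10.1 ± 1.43 CPM in healthy and 92.6 ± 14.0 in SCI astrocytes. Gfap was at 15.2 ± 2.05 CPM in NPC P15, 13689 ± 689 in IGF-1, 21064 ± 1824 in healthy and 24692 ± 3789 in SCI astrocytes, against 22084 ± 403 in CNTF. Both cultures lay far below astrocytes in Slc1a2, which was at 10273 ± 702 CPM in healthy and 3280.3 ± 1342 in SCI astrocytes. Lcn2 was at 1.03 ± 0.854 and 579 ± 316 CPM there, and Serpina3n at 124 ± 49.6 and 2544 ± 605 CPM. Cyp4b1, by contrast, was at 41.3 ± 1.83 CPM in CNTF and at 0.0571 ± 0.0596 and 0.0628 ± 0.0923 CPM in healthy and SCI astrocytes.

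CNTF had also been added to medium with 5% FBS (CNTF+5% FBS, n = 4), which can be set against 5% FBS alone (n = 4). These libraries are not part of CNTF against SPONT, but the test of the difference between media uses both sets. The dose of CNTF in CNTF+5% FBS is not stated. With serum 3564 of 15272 genes (23.3%) were DEGs, 1725 higher (11.3%) and 1839 lower (12.0%), and 38 had a log2FC of 2 or more. Of the 1600 genes that rose in the SPONT medium, 1588 were tested with serum, where 299 rose, 18.7% of that list and 17.3% of the rises with serum, and 142 fell. Of the 1361 that fell, 287 also fell with serum, 21.1% of that list and 15.6% of the falls with serum, and 112 rose. A test of the difference between the effects called 3600 of 15726 genes (22.9%), with a more negative effect with serum in 1984 (12.6%) and a more positive one in 1616 (10.3%). Without SPONT 2 it called 6049. Leaving out any 1 CNTF+5% FBS library reduced the DEGs with serum to 1968–2208.

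Among the pathway genes Socs3 was already higher in 5% FBS, at 48.8, 41.2, 35.1 and 34.7 CPM in 5% FBS 1 to 4 and 57.8, 62.5, 66.9 and 55.5 CPM in CNTF+5% FBS 1 to 4, and its change there was smaller (log2FC 0.53 ± 0.11 SE, adjusted p = 0.005); the effects differed by -3.70 ± 0.35 SE, adjusted p = 8.5e-07. Osmr rose in both media, from 48.9, 30.2, 22.6 and 29.0 CPM in 5% FBS 1 to 4 to 69.1, 78.4, 75.3 and 75.5 CPM in CNTF+5% FBS 1 to 4 (log2FC 1.11 ± 0.20 SE, adjusted p = 0.002), by less than without serum (difference -1.32 ± 0.27 SE, adjusted p = 0.0015). Bcl3 (log2FC 1.65 ± 0.29 SE, adjusted p = 0.0017), C4b (log2FC 1.85 ± 0.15 SE, adjusted p = 3.3e-05) and Serping1 (log2FC 2.13 ± 0.21 SE, adjusted p = 8.8e-05) rose with serum as well. The effects on these also differed between media, by -4.49 ± 0.42 SE, adjusted p = 7.9e-07 for Bcl3, -0.89 ± 0.23 SE, adjusted p = 0.0071 for C4b and -2.03 ± 0.29 SE, adjusted p = 5.7e-05 for Serping1. Gfap stood at 18545, 18686, 13090.0 and 11774 CPM in 5% FBS 1 to 4 and 14527, 13788, 15567 and 14860.0 CPM in CNTF+5% FBS 1 to 4 (log2FC -0.16 ± 0.16 SE, adjusted p = 0.46). It was not called with serum, and the effects differed by -1.67 ± 0.22 SE, adjusted p = 3e-05. Vim stood at 4108, 3246, 3936 and 3837 CPM in 5% FBS 1 to 4 and 3185, 3305, 3544 and 3318 CPM in CNTF+5% FBS 1 to 4 (log2FC -0.25 ± 0.08 SE, adjusted p = 0.031). Cebpd, at 327, 272, 184 and 206 CPM in 5% FBS 1 to 4 and 215, 221, 238 and 232 CPM in CNTF+5% FBS 1 to 4, was not called with serum (log2FC -0.20 ± 0.16 SE, adjusted p = 0.34). Of the pan-reactive genes 1 of 13 rose with serum (median 0.06) and 12 differed between media, all with the more negative effect with serum. Of the acute-phase genes 3 of 15 rose and 2 fell (median 0.23). Of the cell-cycle genes 2 of 31 were higher and 1 lower with serum (median 0.06) and 21 had a more negative effect with serum than without. The effect was more negative in 12.6% of all genes tested. The rises of both lists without serum enter these differences, so nothing is read from the counts of differences between media. Mki67 was at 30.5, 37.5, 15.9 and 13.5 CPM in 5% FBS 1 to 4 and 10.4, 13.1, 11.0 and 11.0 CPM in CNTF+5% FBS 1 to 4 (log2FC -1.17 ± 0.30 SE, adjusted p = 0.011). It was not called with serum, and the effects differed by -2.60 ± 0.35 SE, adjusted p = 3.6e-05.

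Among genes that fell without serum, Gja1 was at 448, 578, 532 and 442 CPM in 5% FBS 1 to 4 and 856, 813, 880.3 and 877 CPM in CNTF+5% FBS 1 to 4 with it (log2FC 0.70 ± 0.09 SE, adjusted p = 0.00028), a difference of 1.90 ± 0.18 SE, adjusted p = 6.8e-07. Slc4a4, at 87.0, 122, 87.5 and 68.7 CPM in 5% FBS 1 to 4 and 119.5, 125, 113 and 111 CPM in CNTF+5% FBS 1 to 4, was not called with serum (log2FC 0.29 ± 0.15 SE, adjusted p = 0.15), and the difference was 2.79 ± 0.26 SE, adjusted p = 5.7e-07. Slc1a2 fell in both, from 134, 194.1, 228 and 149.7 CPM in 5% FBS 1 to 4 to 71.5, 73.0, 69.1 and 65.8 CPM in CNTF+5% FBS 1 to 4 (log2FC -1.40 ± 0.14 SE, adjusted p = 9.7e-05), and the effects could not be told apart (0.10 ± 0.18 SE, adjusted p = 0.7). Lpl (log2FC -2.23 ± 0.14 SE, adjusted p = 7.9e-06) and Cldn10 (log2FC -2.06 ± 0.37 SE, adjusted p = 0.0022) fell with serum too. Of the mesenchymal and contractile genes 13 of 23 fell with serum and 1 rose (median -0.70). Acta2, at 329, 218, 225 and 222 CPM in 5% FBS 1 to 4 and 59.5, 58.0, 68.9 and 70.7 CPM in CNTF+5% FBS 1 to 4, fell as well (log2FC -2.03 ± 0.13 SE, adjusted p = 1.1e-05; difference -2.65 ± 0.24 SE, adjusted p = 6.4e-07), as did Tnc, at 338, 181, 255 and 363 CPM in 5% FBS 1 to 4 and 57.4, 77.5, 70.8 and 68.3 CPM in CNTF+5% FBS 1 to 4 (log2FC -2.13 ± 0.20 SE, adjusted p = 8e-05). In all, the effects differed between media for 64 of the 99 named genes, more negative with serum in 47 and more positive in 17, beside 22.9% of all genes tested. Many of the 99 were chosen for a large effect without serum, which enters this difference, so nothing is read from that count.

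**Figure D5:**
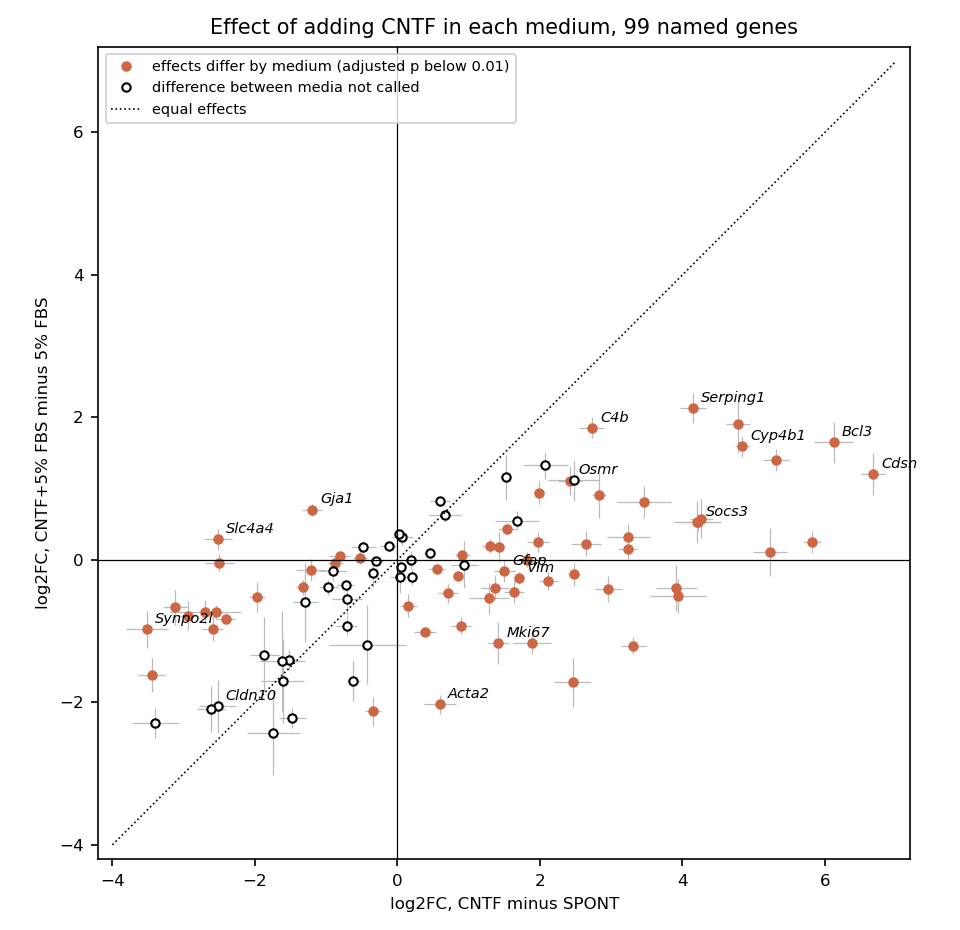
Log2FC of CNTF minus SPONT (x axis) against log2FC of CNTF+5% FBS minus 5% FBS (y axis) for the 99 named genes, with SE bars; filled points are the 64 genes whose effects differed between media at an adjusted p below 0.01, and the dotted line marks equal effects. The strongest rises without serum, such as Cdsn, Bcl3 and Socs3, lie well below the line, and Gja1 and Slc4a4 lie above it.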

How the data were processed

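The 8 libraries compared hold RNA pulled down with HA-tagged ribosomes. The authors trimmed reads with Trimmomatic, aligned them to mm10 with HISAT2 and assigned them to genes with featureCounts in Galaxy, and deposited raw counts for 27179 genes per library. The paper's reporting summary gives the Galaxy versions of these tools, and its methods state default parameters for HISAT2 and featureCounts. Strand settings are not named separately. Of counts from 1 to 20, 60.6% to 64.4% were even in the 8 libraries, as when both mates of a pair are counted, so a fragment can weigh as a pair of counts. Gene names came from RefSeq GRCm38.p6 (25275 identifiers) and GENCODE M21 (18 more), and 1886 stayed unnamed. CPM, the deposited counts of a gene per 1000000 of its library's total, and FPKM, from the union-exon lengths of 21567 genes, were computed here. Overlapping or near-identical genes (Gpr17 and Lims2, Timp1 and Syn1, Cebpd and Spidr, Hk1 and Hk1os, C4a and C4b, H2 chains, the Serpina3 family) cannot be told apart in these counts.

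Genes passing filterByExpr (minimum count 10) were scaled by TMM and fitted on the 8 libraries alone with edgeR 4.0.16 (quasi-likelihood test, R 4.3.3), adjusted by Benjamini-Hochberg and called at an adjusted p below 0.01. The SE is the size of the log2FC over the square root of F. The same test was run with serum, and the difference between media was tested as an interaction over 16 libraries. The members and lists were chosen with earlier results of these data known. The 99 named genes were list anchors, the largest called rise and fall of each list with a mean of at least 1 CPM, and the 10 largest called rises and falls with a mean of at least 10 CPM and groups that did not overlap, genes without a symbol passed over. Some genes are not reported here. Further list members were picked as examples after their values were seen. Lists share members, such as Serping1 in the A1 and complement lists, so their counts are not independent. They are given by counts and medians with no set test. Alternatives were DESeq2 size factors, DESeq2 1.42.0, no filter, a stricter filter (1 CPM in 4 libraries), all differentiation groups in 1 fit, the replicate number as a block, each library left out and an adjusted p below 0.05. Summaries used pandas 2.3.3 and numpy 2.4.6 in Python 3.11.15, and figures matplotlib 3.10.9. The fits were tested on simulated data with 200 genes changed, 100 by a log2FC of 1 in size and 100 by 2. For CNTF against SPONT 82 and 92 of these were recovered, with 3 false calls. For the difference between media 59 and 76 were recovered, with 0 false calls, so a gene not called can still differ.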

Additional observations from a re-analysis of the deposited data

Results flagged for a closer look

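Each named gene was screened for a library far from the other 3 of its group, by the gap to its nearest neighbour over the range of the group (Dixon's test at its 95% limit). Of 198 groups of 4 libraries 16 were picked out, 8 in SPONT and 8 in CNTF, and 6 of the SPONT ones were SPONT 2; chance picks about 1 in 20 groups. SPONT 2 was the highest of its group for Pla2g7 (1000 CPM), Apoe (16200 CPM), Acta2 (2.17 CPM), Serping1 (0.917 CPM), the secreted phosphoprotein gene Spp1 (0.740 CPM) and the ciliary gene Ccdc153 (0.225 CPM). SPONT 1 was the highest for Aqp4 (99.3 CPM) and Cdsn (1.06 CPM). Among the CNTF libraries, CNTF 3 was the highest for Vim (6060 CPM), Serping1 (13.0 CPM), Hes1 (53.4 CPM) and Synpo2l (1.88 CPM) and the lowest for Lifr (14.7 CPM). CNTF 1 was the highest for C4b (159 CPM) and the lowest for Anxa1 (1.42 CPM), and CNTF 2 was the lowest for Dapk2 (3.17 CPM).

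The effect of CNTF with 5% FBS differed from that without serum for 64 of the 99 named genes, by a test of the difference itself (edgeR, adjusted p below 0.01), beside 22.9% of all genes tested. Many of these genes were chosen for a large rise or fall without serum, which enters the difference, so the count and the directions over them are a description. The numbers in parentheses are the effect with serum minus the effect without it, in log2. The receptor, kinase and inhibitor genes with a difference were Lifr (0.85), Osmr (-1.32), Socs3 (-3.70), Jak3 (-1.12) and Pias1 (0.54). Of the STAT3 target and acute-phase genes the effect was more negative with serum for Bcl3 (-4.49), Cebpd (-2.70), Serpina3n (-2.43), Lcn2 (-4.32), Timp1 (-3.38), Itih4 (-5.14) and Itih3 (-1.06). The same held for the filament and reactive genes Gfap (-1.67), Vim (-1.97), Nes (-1.83), Cd44 (-0.86), Gbp2 (-1.83), Gbp3 (-2.42), Cd14 (-3.09), S100a6 (-1.84), Anxa1 (-4.47), Spp1 (-4.19), Tnc (-1.79), Acta2 (-2.65) and Col6a1 (-4.53), and for the complement and chemokine genes C3 (-2.94), C4b (-0.89), Serping1 (-2.03) and Ccl2 (-3.06), whereas Masp1 differed the other way (1.06). Astrocyte and transport genes differed both ways: Gja1 (1.90), Slc4a4 (2.79) and Pla2g7 (1.45) had the more positive effect with serum, and Aldh1l1 (-0.81) and Clu (-1.12) the more negative. Lipid, iron and glycolysis genes gave Hmgcs1 (0.81), Ebp (-0.69), Trf (-1.94), Ldha (-1.09) and Pfkp (-1.74). Developmental and cell-cycle genes gave Id3 (-1.41), Mki67 (-2.60), Ccnd2 (-2.10), Bub1b (-1.26), Gli2 (0.93), Hes1 (-1.18), Bmp6 (-1.77) and Smad9 (1.95). Of the largest rises without serum, Cdsn (-5.49), Ccn5 (-5.58), C1qtnf1 (-3.92), Cyp4b1 (-3.26), Prph (-2.89), Psors1c2 (-3.70) and Fcgr2b (-3.69) had the more negative effect with serum, as did the ciliary gene Ccdc153 (-2.67). Of the largest falls, Synpo2l (2.53), Pygm (1.82), Ptprt (2.44), St8sia5 (2.14), Myh8 (1.61), Alpl (1.81), Dapk2 (2.45) and Adcy8 (1.56) had the more positive effect with serum. The cause of these differences was not tested, and the dose of CNTF with serum is not stated in the sources used here.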

How the results depend on the processing

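Most counts of DEGs kept within 1.5 times their value, and those that did not are as follows. For CNTF against SPONT, one fit over all differentiation groups gave 4678 DEGs (2401 higher, 2277 lower), an adjusted p below 0.05 gave 5031 (2518 and 2513), and DESeq2 gave 2124 lower. Replicate numbers did not pair the libraries (correlation of same-numbered deviations -0.131 to 0.0163, and -0.029 to 0.0982 with serum). With them as a replicate block there were 2059 DEGs (1170 higher, 889 lower), and with serum 1296 higher and 1220 lower. Leaving out 1 library gave 2027 to 6049 DEGs for CNTF against SPONT (1186 to 2948 higher, 840 to 3101 lower), 1968 to 3908 with serum (1037 to 1949 higher, 931 to 1959 lower) and 2702 to 6049 for the difference between media (1212 to 2849 and 1437 to 3200). The highest values for CNTF against SPONT and for the difference between media came without SPONT 2. The cause of these moves was not tested. With the stricter filter the median log2FC of 8 of 34 gene lists moved by at least its spread between libraries. Without SPONT 2 that of 6 of 36 lists did, and without SPONT 1 or SPONT 4 that of 3. No named gene reversed under any of these alternatives. Of the 99, the block ended the call of 6 (H2-D1, Olig2, Cxcl12, Ebp, Idi1 and Heyl), the fit over all groups that of 4 (Olig2, Hes5, Gpr17 and Heyl), and leaving out a library other than SPONT 2 that of 3 to 11. In genes near 0 in a group, such as Anxa1 and Itih4 in SPONT, the low counts limit the precision of the fold.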
